A study of Mus musculus with 6 samples.

Results

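The lysosomal cathepsins are represented here by 14 of the 45101 probe sets on the array, which cover 7 genes: Ctsl, Ctsb, Ctss, Ctsh, Ctsc, Ctsz and Ctsd. They were compared between bone-marrow neutrophils of miR-223 null mice, which lack the microRNA miR-223, and of wild-type mice, with 3 Affymetrix arrays for each group. The cells came straight from the marrow and were enriched by MACS, magnetic sorting, with an antibody against Gr-1. The labels give no strain, age or sex, do not say how the null allele was made, and do not tie the arrays to separate animals, so the spread between arrays may be partly technical. The values are the authors' deposited expression values, taken as log2 from their range, so that a difference of 1 is a doubling. The probe sets were assigned to genes by their numbers as listed in the definition of the group, because the deposited table pairs no number with a gene, and this assignment was not checked against an annotation. For the same reason the neutrophil label was not checked against marker genes, marker levels of other marrow cells were not measured, and loss of miR-223 itself was not checked.

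Cathepsins are proteases of the lysosome, the acidic compartment in which cells break down proteins. They are made as inactive precursors, carried to lysosomes and there trimmed to active enzymes. Ctsl, Ctsb, Ctss, Ctsh, Ctsc and Ctsz use a cysteine in the active site and Ctsd uses aspartates. In myeloid cells they digest engulfed material, and Ctsc (dipeptidyl peptidase I) also trims the serine proteases of neutrophil granules to their active form.

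The miRNA that is missing in null cells is encoded on the X chromosome and gives a mature strand from each arm of its hairpin. Both are shown, from RefSeq on GRCm38.p6, because they are what distinguishes the groups. Bases 2 to 8, the seed that pairs with target transcripts, are in capitals. The 3p strand lies at chrX:96242884-96242905 and the 5p strand at chrX:96242842-96242864, both on the plus strand. No transcript sequence was used here, so pairing of these seeds with cathepsin transcripts was not examined.
mmu-miR-223-3p: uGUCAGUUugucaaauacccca
mmu-miR-223-5p: cGUGUAUUugacaagcugaguug

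The 6 arrays were divided into 2 sets, called technical sets here, at the widest gap in their hybridization control means. That gap was 0.131 and the next was 0.0501. Such a cut always gives 2 sets, and the labels name no batch. The sets cut across the groups. By their hybridization controls, bacterial and phage sequences added to each labelled sample, null replicates 1 and 2 and wild-type replicate 1 were brighter, with control means of 10.94 to 10.98 on the log2 scale. Null replicate 3 and wild-type replicates 2 and 3 were dimmer, with 10.72 to 10.81.

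Of the cathepsins, 6 genes had higher mean levels in null than in wild-type cells on each of their probe sets, and Ctsh did not. Ctsl stood highest, at 3.80-fold, Ctsz followed at 1.77-fold to 1.79-fold over its 3 probe sets, and Ctsb, Ctsd, Ctss and Ctsc lay between 1.31-fold and 1.60-fold. The 14 probe sets were selected on gene family and with the log2 differences of these same arrays in view, so the differences are given as a description, with standard errors and no p-value. Counts of members past the threshold of the fit over all probe sets are given further on as a description too. Of the 14, 13 had a higher mean in null cells, as did 48.2% of the 22519 probe sets that were bright enough to be tested. The median log2 difference was 0.56 over all 14 and 0.54 without Ctsl. Over the tested members it was 0.59, beside a median of -0.00802 over all tested probe sets. For 10 of the 14, every null array lay above every wild-type array, a separation seen in 12.8% of all tested probe sets. Several probe sets measure the same transcript, so the 14 are not independent of each other.

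**Figure D1:**
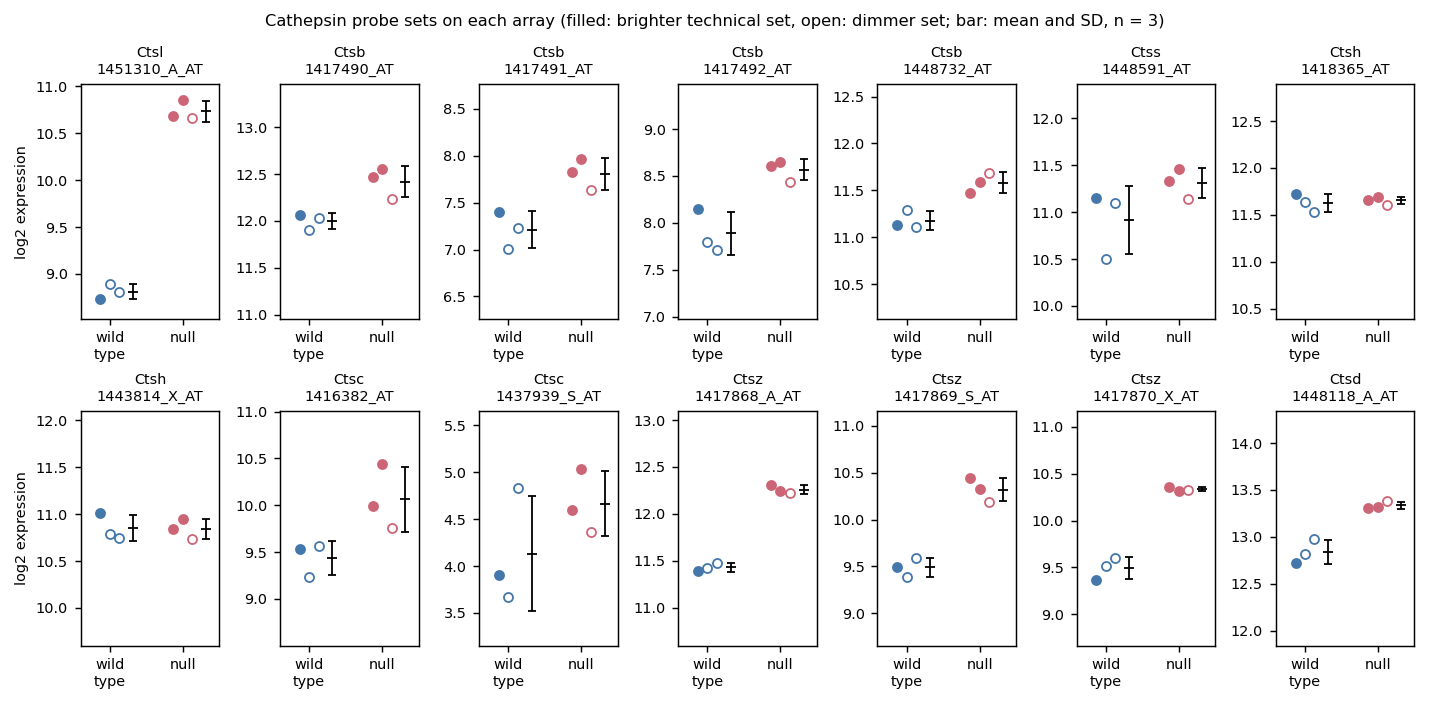
Each panel plots 1 cathepsin probe set, with log2 expression on the vertical axis, on the same span in every panel, and a point for each array. Blue points are wild type and red points are null, filled for the brighter and open for the dimmer technical set, and bars give mean and SD (n = 3). Null and wild-type points are separated for 10 probe sets and overlap for Ctss, for both probe sets of Ctsh and for the dim probe set of Ctsc.

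Cathepsin L (Ctsl), an endopeptidase that cuts within protein chains, was measured by probe set 1451310_A_AT. The suffix _A_AT marks probes that match several transcripts of a single gene. The null arrays read 10.68, 10.86 and 10.66, and the wild-type arrays 8.73, 8.89 and 8.81. The lowest null array thus stood 1.77 log2 units above the highest wild-type array, while arrays of a group lay within a fraction of that distance. The null mean was 10.73 ± 0.112 and the wild-type mean 8.81 ± 0.0802 (SD, n = 3 each). The difference was 1.92 with a standard error of 0.0883. By this upward difference Ctsl ranked 8 among the 22519 tested probe sets. With any single array left out the difference was between 1.86 and 1.96.

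Cathepsin Z (Ctsz), also called cathepsin X, is a carboxypeptidase that removes residues from the end of a chain. Its 3 probe sets gave nearly the same difference. On 1417868_A_AT the null arrays read 12.31, 12.24 and 12.22 and the wild-type arrays 11.39, 11.42 and 11.48. This difference was 0.82 with a standard error of 0.0584. On 1417870_X_AT the null arrays read 10.36, 10.32 and 10.33 and the wild-type arrays 9.37, 9.51 and 9.60. The null arrays were closely grouped there and all lay above the wild-type arrays, and the difference was 0.84 with a standard error of 0.0826. On 1417869_S_AT the null arrays read 10.44, 10.33 and 10.19 and the wild-type arrays 9.49, 9.39 and 9.59, with a difference of 0.83 and a standard error of 0.0940. The suffixes _S_AT and _X_AT mark probe sets that can also bind transcripts of other genes. The differences of the 3 Ctsz probe sets, of which 1417868_A_AT is not of that kind, spanned 0.0223 log2 units.

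Cathepsin B (Ctsb), which cuts both within chains and at their ends, had 4 probe sets, all separated between the groups. On 1417490_AT the null arrays read 12.47, 12.55 and 12.23 and the wild-type arrays 12.06, 11.90 and 12.03, a difference of 0.42 with a standard error of 0.0927. On 1448732_AT they read 11.47, 11.59 and 11.69 against 11.13, 11.29 and 11.11, a difference of 0.41 with a standard error of 0.0810. The other two probe sets for Ctsb gave larger differences and a wider spread among wild-type arrays. On 1417491_AT the null arrays read 7.83, 7.97 and 7.63 and the wild-type arrays 7.40, 7.01 and 7.23, a difference of 0.59 with a standard error of 0.142. On 1417492_AT they read 8.61, 8.65 and 8.44 against 8.15, 7.80 and 7.71, a difference of 0.68 with a standard error of 0.137. The 4 differences spanned 0.272 log2 units, and the per-array mean of the 4 probe sets differed by 0.53, with a null mean of 10.09 ± 0.0963 and a wild-type mean of 9.57 ± 0.103 (SD, n = 3 each).

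Cathepsin D (Ctsd), the aspartic protease of the group, was measured by 1448118_A_AT near the top of the range of the array. The null arrays read 13.31, 13.32 and 13.38 and the wild-type arrays 12.72, 12.82 and 12.98. All null arrays were higher, and the wild-type arrays spread more than the null ones (SD 0.133 against 0.0386, n = 3 each). The difference was 0.50 with a standard error of 0.0732, or 1.41-fold.

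For cathepsin S (Ctss), an endopeptidase known for trimming the invariant chain of MHC class II, the groups touched. The null arrays of 1448591_AT read 11.33, 11.46 and 11.14 and the wild-type arrays 11.15, 10.50 and 11.10. Wild-type replicate 1 lay 0.0122 above null replicate 3, and wild-type replicate 2 lay below all other arrays. The mean difference of 0.39 had a standard error of 0.175, and it moved between 0.19 without wild-type replicate 2 and 0.51 without wild-type replicate 1.

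Cathepsin C (Ctsc), the activator of granule serine proteases, had a bright and a dim probe set. On 1416382_AT the null arrays read 9.99, 10.44 and 9.76 and the wild-type arrays 9.53, 9.23 and 9.56. The null arrays were all higher but differed among themselves (SD 0.347), and the difference was 0.62 with a standard error of 0.178. The dim probe set 1437939_S_AT had a mean of 4.40, below the level of 4.83 required for testing. Its null arrays read 4.60, 5.04 and 4.36 and its wild-type arrays 3.90, 3.67 and 4.83, so the groups overlapped. The difference was 0.54 with a standard error of 0.289, taken from the fit without a filter, and it ranged from 0.30 without wild-type replicate 2 to 0.88 without wild-type replicate 3. Within the null group both probe sets placed replicate 2 highest, by 0.378 and 0.374 above the group mean, and replicate 3 lowest, by -0.306 and -0.305. Within the wild-type group both placed replicate 3 highest and replicate 2 lowest, but by unlike amounts, 0.122 and -0.210 on the bright and 0.697 and -0.463 on the dim probe set.

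Cathepsin H (Ctsh), an aminopeptidase that removes residues from the start of a chain, read at like levels in both groups. On 1418365_AT the null arrays read 11.66, 11.69 and 11.61 and the wild-type arrays 11.72, 11.64 and 11.53. On 1443814_X_AT they read 10.84, 10.95 and 10.74 against 11.01, 10.79 and 10.75. The groups overlapped on both. The differences were 0.0206 with a standard error of 0.0694 and -0.00688 with a standard error of 0.0949. Both changed sign with an array left out. The first became -0.0308 without wild-type replicate 3 and the second 0.0744 without wild-type replicate 1. The first was also below 0, at -0.0144, in the fit that includes the technical set.

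**Figure D2:**
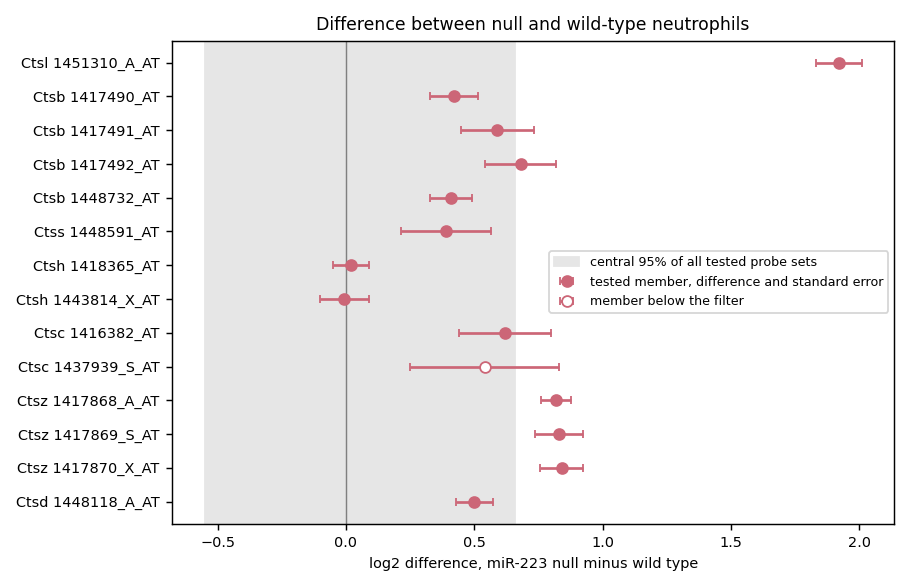
Points are the log2 difference (null minus wild type) for each cathepsin probe set, with bars of 1 standard error from the limma fit. The grey band holds the central 95% of the differences of all tested probe sets, from -0.55 to 0.66. Ctsl at 1.92, the 3 Ctsz probe sets at 0.82 to 0.84 and Ctsb 1417492_AT at 0.68 lie above the band, and the Ctsh points lie near 0.

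In the limma fit over all 22519 tested probe sets, 3.84% were called at a Benjamini-Hochberg adjusted p under 0.05, and 2.78% were called with a higher level in null cells. Of the 13 cathepsin probe sets tested, 7 were called, all higher in null: those of Ctsl, Ctsd, the 3 of Ctsz, and 1417492_AT and 1448732_AT of Ctsb. Nothing is read from this count, because the members were chosen with the same comparison in view. The count fell to 3 without null replicate 1 (Ctsl and the Ctsz probe sets 1417868_A_AT and 1417870_X_AT) and to 4 without null replicate 2 (Ctsl and the 3 of Ctsz). It was 5 or 6 with each of the other arrays left out. The calls over all 22519 probe sets fell as well, from 864 to 85 without null replicate 1 and to 147 without null replicate 2. Without null replicate 1 the members no longer called had differences of 0.51 (Ctsd), 0.66 (Ctsb 1417492_AT), 0.46 (Ctsb 1448732_AT) and 0.77 (Ctsz 1417869_S_AT). Leaving out 1 of the 3 arrays of a group can shift a difference only within the spread of the arrays. That these lie close to the values over all arrays is therefore not read as stability. The arrays measure RNA of a bulk cell sample, in which more cells of a type and more RNA per cell cannot be told apart.

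Because each technical set of arrays holds both groups, the cathepsins were also compared within each set. Each such comparison rests on a single array on 1 side, wild-type replicate 1 in the brighter and null replicate 3 in the dimmer set, and has no replicate check there. The same 6 arrays give the pooled difference, so these values are not independent of it. For Ctsl the difference was 2.04 in the brighter and 1.81 in the dimmer set. For Ctsz the mean of its probe sets differed by 0.92 and 0.75, for Ctsb by 0.46 and 0.49, and for Ctsd by 0.60 and 0.48. For Ctss the values were 0.24 and 0.35. The mean of both Ctsc probe sets differed by 0.80 in the brighter and 0.24 in the dimmer set, and the bright probe set alone by 0.69 and 0.36. Ctsh gave -0.0831 and -0.00588.

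**Figure D3:**
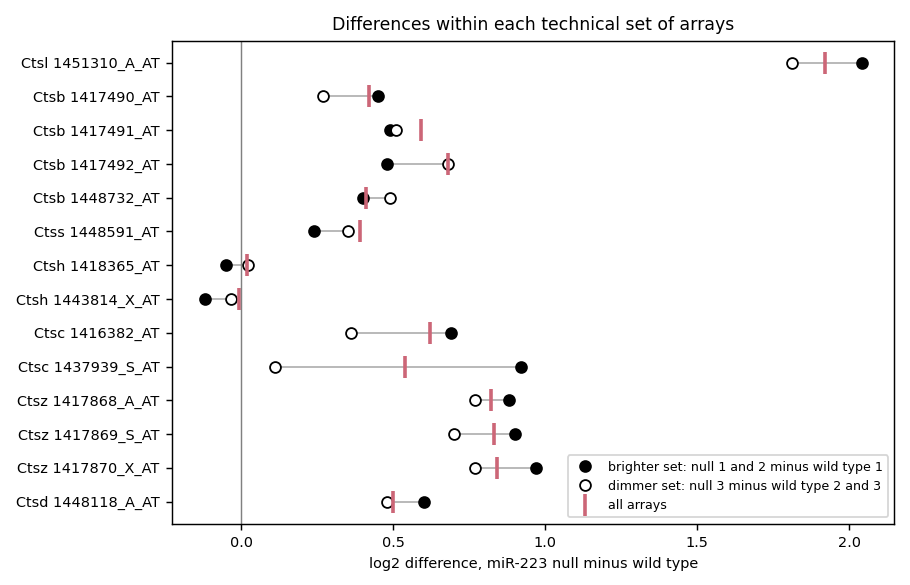
The log2 difference (null minus wild type) of each cathepsin probe set is drawn within the brighter set (filled), within the dimmer set (open) and over all arrays (red bar). Of the 14 probe sets, 12 lie above 0 in both sets, and Ctsl is at 2.04 and 1.81.

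Of the cathepsin probe sets, 12 of 14 were higher in null cells in both sets, and the exceptions were those of Ctsh. The share among all tested probe sets was 32.5%, whereas the 14 include the dim Ctsc probe set, which was not tested. With the technical set as a term in the limma fit, 9 of 13 tested cathepsin probe sets were called, all higher in null, beside 5.57% of all tested probe sets called higher. Those not called in the fit without this term were 1417490_AT and 1417491_AT of Ctsb. Nothing is read from this count or from the 12 of 14, since the members were chosen on the same comparison. The Ctsl difference in that fit was 1.93 with a standard error of 0.0894, and that of Ctss was 0.29 with a standard error of 0.148.

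Within the null group many cathepsin probe sets varied the same way, but several of them measure the same transcript. Null replicate 3 is also the only null array of the dimmer set. Null replicate 2 was the highest null array for 9 of the 14 probe sets, against 36.3% of all tested probe sets, and null replicate 3 was the lowest for 11 of 14, against 41.3%. Wild-type replicate 2 was the lowest wild-type array for 6 of 14 (31.5% of all tested). The deviations were wide for Ctsc and for Ctss, whose wild-type replicate 2 deviated by -0.417 from its group mean, and narrow for Ctsz 1417868_A_AT, with a null SD of 0.0467 and a wild-type SD of 0.0466 (n = 3 each). Ctsd and 1448732_AT of Ctsb ran the other way in the null group, with replicate 3 highest. The 3 Ctsz probe sets had null replicate 1 highest, and 1417870_X_AT had null replicate 2 lowest.

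**Figure D4:**
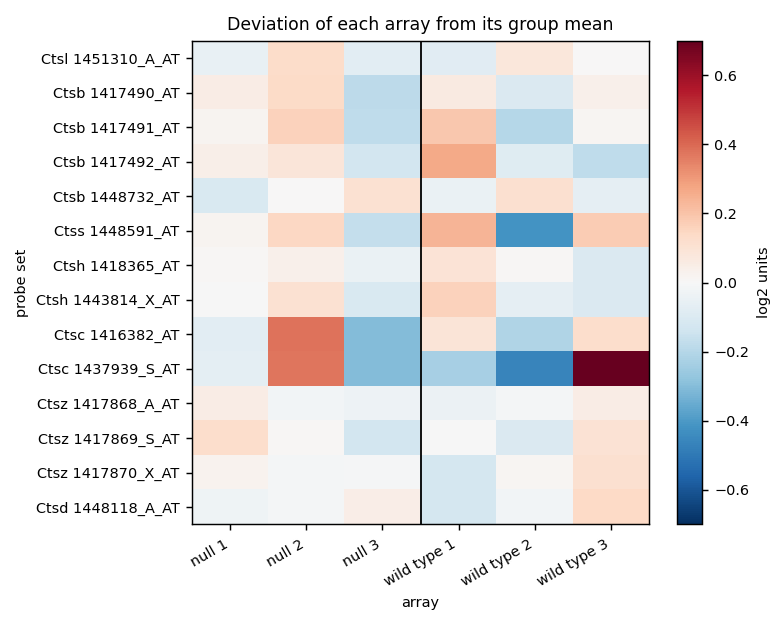
Colour gives the deviation of each array (columns) from its group mean for each cathepsin probe set (rows), in log2 units, red above and blue below. The widest deviations are those of Ctsc 1437939_S_AT on wild-type replicates 3 (0.697) and 2 (-0.463), followed by Ctss on wild-type replicate 2 (-0.417), and the rows of Ctsz are pale.

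Likeness to Ctsl was measured as the Euclidean distance between log2 values centred over the 6 arrays, among the 22518 other tested probe sets. The nearest were 1454933_AT, at a distance of 0.282, and 1434559_AT, at 0.390, neither of which the table pairs with a gene. The first had a null mean of 8.95 ± 0.0373 and a wild-type mean of 7.12 ± 0.131, and the second 7.29 ± 0.239 and 5.45 ± 0.161 (SD, n = 3 each). The nearest cathepsin was Ctsz 1417870_X_AT, at rank 199 and a distance of 1.34, since its difference is smaller. The distance weighs the size of the group difference most, and the group difference was used to choose Ctsl.

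The promoter windows of the cathepsins were set side by side as a description, and whether they share a regulator was not tested. RefSeq windows on GRCm38.p6, from 250 bases before to 50 after a transcript start, matched 5 of the 7 genes: Ctsl, Ctsd, Ctsz, Ctsc and Ctss. Ctsb and Ctsh had no entry. The windows were searched on both strands for the E-box CACGTG, the core of the element bound by TFEB, a transcription factor known to drive lysosomal genes, for its longer form TCACGTGA, which contains the E-box, and for the GC box GGGCGG. Both E-box forms read the same on either strand. The E-box was found in the windows of Ctsl and Ctsd, and in 7.15% of all 32851 windows. In Ctsd it occurred at bases -245 and -98 from the start, and the second was part of TCACGTGA at -99, which 0.974% of all windows hold. In Ctsl it lay at -236. The Ctsl window starts from a RefSeq transcript that begins 252 bases inside the annotated gene, so that the whole window lies within the gene, 2 bases from its outer end. The Ctsc start lies 61 bases inside its gene, and those of Ctsd, Ctsz and Ctss are the outer ends.

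The windows of Ctsl and Ctsd are shown because they hold the E-box, in capitals. That of Ctsz, which holds none, is shown because Ctsz had the next largest difference after Ctsl. The Ctsl window is chr13:64370471-64370770, that of Ctsd chr7:142387778-142388077 and that of Ctsz chr2:174438990-174439289, all read 5′ to 3′ on the minus strand.
Ctsl: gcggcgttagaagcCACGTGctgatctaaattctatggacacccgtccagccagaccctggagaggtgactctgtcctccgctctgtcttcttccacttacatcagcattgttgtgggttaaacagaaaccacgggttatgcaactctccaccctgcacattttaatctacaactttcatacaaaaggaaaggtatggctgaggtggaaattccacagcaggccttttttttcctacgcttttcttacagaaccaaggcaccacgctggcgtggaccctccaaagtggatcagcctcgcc
Ctsd: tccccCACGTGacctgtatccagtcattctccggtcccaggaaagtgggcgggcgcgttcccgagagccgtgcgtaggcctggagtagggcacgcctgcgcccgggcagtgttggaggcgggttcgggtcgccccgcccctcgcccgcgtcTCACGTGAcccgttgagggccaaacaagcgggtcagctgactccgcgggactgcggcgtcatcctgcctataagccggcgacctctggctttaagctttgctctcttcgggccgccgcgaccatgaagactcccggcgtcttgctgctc
Ctsz: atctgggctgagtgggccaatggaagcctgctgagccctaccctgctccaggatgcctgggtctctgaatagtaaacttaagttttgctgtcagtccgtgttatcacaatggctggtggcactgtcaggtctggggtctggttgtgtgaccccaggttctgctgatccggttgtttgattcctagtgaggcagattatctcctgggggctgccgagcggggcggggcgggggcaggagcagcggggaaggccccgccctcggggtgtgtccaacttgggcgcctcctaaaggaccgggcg

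The GC box was found in the windows of Ctsz (3 matches), Ctsd (2 matches), Ctsc and Ctss, not in that of Ctsl, and in 35.7% of all windows. The 5 windows therefore share neither motif throughout. GC content was 50% for Ctsl, 67.3% for Ctsd, 61.0% for Ctsz, 60.3% for Ctsc and 44.0% for Ctss, against a median of 52.7% over all windows. A match is only a run of letters in the window, and no binding was measured.

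**Figure D5:**
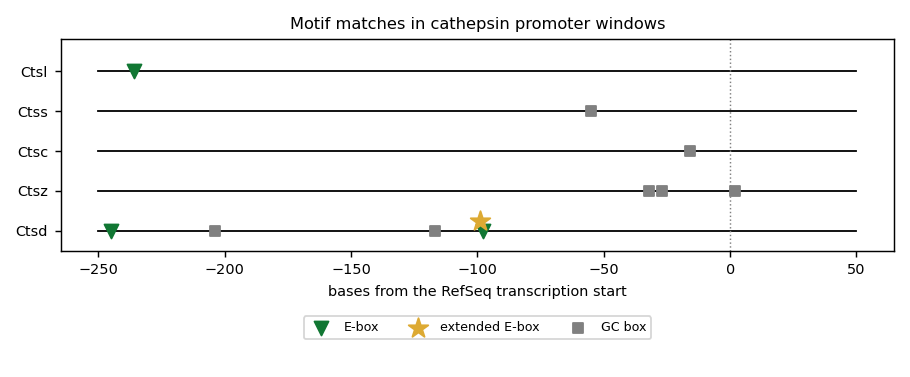
Lines are the promoter windows of 5 cathepsin genes, with distance from the RefSeq transcript start in bases on the horizontal axis. Triangles mark CACGTG, the star TCACGTGA and squares GGGCGG, showing E-boxes in Ctsl (-236) and Ctsd (-245 and -98) only among these 5. The Ctsl start lies 252 bases inside the annotated gene, so the whole Ctsl window lies within that gene.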

How the data were processed

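Expression values for 45101 probe sets on 6 arrays were used as deposited by the authors and taken as log2. Per the submitters' processing notes the software was GCOS. How background was corrected and probes were normalized and summarised is not given in the sources used here. Values from 2.12 to 14.98 fit a log2 scale, which no label states. Once sorted, columns agreed to within 0.0890 at each rank, and they were not scaled again. The precision is limited by 3 arrays per group, and detection calls were not used.

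After removal of 64 control probe sets, 22519 probe sets had a mean at or above the median of the means (4.83). They were fitted in R 4.3.3 with limma 3.58.1 (eBayes with trend, two-sided, Benjamini-Hochberg). The method was also run on simulated data with noise independent between probe sets and between arrays. Variation shared by many probe sets, such as between the technical sets, was not simulated. Standard errors are those of the fit to the real arrays, and SDs are over arrays. Technical sets were split where the means of 18 hybridization control probe sets left their widest gap (0.131). Replicate numbers are shared by the groups, but deviations of same-numbered arrays correlated at 0.211, -0.124 and 0.371, so the numbers were not taken as pairs. Members, lists, motifs and alternatives were chosen with earlier results of these data known. All members were named. Planned counts over related lysosomal genes and over markers of neutrophils, monocytes and macrophages, B, dendritic, erythroid, T, NK, eosinophil, basophil and mast cells were not made, and for likeness 2 probe sets were given by number instead of 5 genes, because the table pairs no probe set with a gene. Figures were drawn with matplotlib 3.10.9.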

Additional observations from a re-analysis of the deposited data

How the results depend on the processing

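The Ctsl difference was between 1.81 and 2.04 in all settings run. It was 1.81 in the dimmer and 2.04 in the brighter technical set, both further from 1.92 than the pooled SD of the arrays. With an array left out it was 1.86 to 1.96, a shift that could not exceed this SD. The member count of 7, a description, became 4 without the intensity trend, 4 with null replicates 1 and 2 averaged, and 3 to 6 with an array left out, and Ctsl and the Ctsz probe sets 1417868_A_AT and 1417870_X_AT were called in all 15 settings. Over all probe sets, 864 calls became 2466 with the technical set as a block, 119 with null replicates 1 and 2 averaged and 85 to 592 with an array left out. With the replicate number as a block, the member count was 7 and the count over all probe sets 857. The Ctsl difference was 1.92 there, as it had to be, since each number holds 1 array of each group. No filter, a stricter filter, 16 added to the linear values and quantile normalization left the 3 results within 1.5 times or within the spread of the arrays. Quantile normalization had little to change, since sorted columns already agreed to within 0.0890 at each rank. The 16 added is small beside the Ctsl values on the linear scale. A filter, like the replicate block, cannot change the Ctsl difference, so only the counts could respond to it. Of 206 alternative values for the 13 other members, 198 stayed within the pooled SD of the arrays, 8 moved further and 0 of the called ones reversed. Many of the 206 could not have moved further. A filter, the trend and the replicate block leave a difference unchanged. Leaving out 1 of the 3 arrays of a group, or averaging null replicates 1 and 2, shifts it by less than this SD. The 198 are therefore not read as a sign of stability. The counts for related lysosomal genes could not be run. The median standard error of a difference, 0.128, limits what 3 arrays against 3 can resolve.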
